A study of Mus musculus with 12 samples.

Results

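The histone genes measured here were 48 of 22180 genes for which a probe set names that gene alone. They were taken by symbol, as every gene whose name begins with a histone family prefix and which is the only gene its probe set lists, and the 51 probe sets that met this rule were reduced to the one with the highest mean signal per gene. Of the 48 genes, 25 were replication-dependent, 5 were replacement histones, 16 were germline histones and 2 were pseudogenes. The replication-dependent genes comprised 4 H1, 6 H2A, 7 H2B and 8 H4 genes, of which 18 lie on chromosome 13 and 5 on chromosome 3. No H3 gene had a probe set of its own, so H3 and the variant H3.3 were measured only by probe sets that list several genes.

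Histones package DNA into nucleosomes. Replication-dependent histone genes are transcribed in S phase under the coactivator NPAT, and their mRNAs end in a stem-loop bound by SLBP instead of a poly(A) tail. Replacement histones such as H2A.Z and H3.3 come from genes with ordinary polyadenylated mRNAs, are made throughout the cell cycle, and are put into chromatin outside replication by their own chaperones. CAF-1, whose large subunit is encoded by Chaf1a, deposits new H3 and H4 on replicating DNA.

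The cells were mouse embryonic fibroblasts from E13.5 embryos whose strain label names C57Bl/6 and 129X1/SvJ. All 4 groups carried the genotype Col1a1::tetOP-OKSM ; R26-M2rtTA, a doxycycline-inducible cassette for Oct4, Klf4, Sox2 and c-Myc at Col1a1 with the reverse tetracycline transactivator at Rosa26. All were grown in embryonic stem cell medium with serum and LIF, infected with a retroviral hairpin and given doxycycline. The control groups had a hairpin against Renilla luciferase, a gene that mouse cells lack, and the knockdown groups had one against Chaf1a, at day 3 or day 6 of induction, with 3 arrays in each of the 4 groups. The sample labels call the molecule polyA RNA, while their protocol describes total RNA and a labelling reaction with 100 ng of it. Since replication-dependent histone mRNAs end without a poly(A) tail, a poly(A)-selected input would hold few of them, or mainly tailed forms, and the values of that class would then stand for those forms. The labels do not settle which input was used. Whether replicates are separate cultures is not stated, so p-values measure the spread between these samples, which may be technical.

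Expression is given as log2 of the deposited RMA signal intensity, in the order replicate 1, 2 and 3. Median array intensity was 39.5 to 43.3, and 17860 genes passed a filter that asked for the 30th percentile of the array in at least 3 arrays. All 11 fibroblast markers passed it, with a mean log2 signal of 9.77 to 10.24 on every array. Markers of other cells also differed between groups. The mean of 8 pluripotency markers was 5.46 to 5.73 in day 6 knockdown arrays and 4.89 to 5.05 in all others, that of 5 epithelial markers was 6.91 to 6.96 in day 6 knockdown, 6.33 to 6.39 in day 6 control and 5.87 to 6.15 at day 3, that of 4 macrophage markers (3 past the filter) lay between 5.64 and 5.78 on day 3 arrays and between 5.25 and 5.37 on day 6 arrays, and that of 4 endothelial markers between 6.61 and 6.76 and then between 6.96 and 7.15. The members of a list did not all move alike. At day 6, 6 of 8 pluripotency and 5 of 5 epithelial markers were higher in knockdown. Between the days in control cells, 2 of 4 endothelial markers rose and 2 fell, with log2 differences of −0.16 to 1.00. The 3 tested macrophage markers fell by between 0.10 and 1.19, and 1 of them passed the test. Replicate 2 of the day 3 knockdown stood apart, with an interferon-stimulated gene score of 1.17 on the log2 scale where the 11 other arrays lay between −0.20 and −0.02. In these bulk samples fewer cells of a type and less RNA per cell cannot be told apart, and the part of these cell types and of that array in the histone values was not tested. Chaf1a itself differed between hairpins by a log2 value of −0.29 at day 3 and −0.12 at day 6 without passing the test (limma, adjusted p = 0.726 and 0.999).

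Of the 48 histone genes, 37 passed the filter and were tested, namely 21 replication-dependent, all 5 replacement, 10 germline and 1 pseudogene. The 11 that failed reached the filter level on 0 arrays each, and they included the replication-dependent genes H2ac12, H2ac15, H2bc21 and H4c2. H2af-ps2, the pseudogene tested, reached it on 4 arrays, and every other tested gene on all 12. The median log2 signal of the arrays was 5.30 to 5.44. The tested replication-dependent genes H4c17 (mean 4.80), H2bc22 (5.02), H4c1 (5.12), H1f1 (5.15) and H4c14 (5.26) lay near or below it. H4c8 (5.27), H2bc14 (5.38), H2bc9 (5.47) and H2aw (5.51) lay near it, and H1f3 (5.97) was not far above. The other tested genes of the class had means of 7.84 or more. Medians and counts over the 21 genes include the dim ones. Many histone genes are near-identical in their coding part, so a probe set that lists 1 gene may also bind transcripts of its relatives, and single-gene values of the replication-dependent class are uncertain in that sense.

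The promoters of the 4 genes that passed a test, H2az2, H2aj, H4c8 and H2ac21, are printed with that of H2bc12. H2bc12 is the H2B gene with the brightest single-gene probe set. The 5 show how the classes differ upstream of the transcription start. They are the 160 bases before the start in RefSeq on GRCm38.p6, written 5′ to 3′ on the gene's strand, at chr11:6444444-6444603 (minus strand) for H2az2, chr6:136808088-136808247 (plus) for H2aj, chr13:23530884-23531043 (plus) for H4c8, chr3:96219725-96219884 (plus) for H2ac21 and chr13:22035661-22035820 (plus) for H2bc12. Capitals mark the CCAAT box (CCAAT or ATTGG), the TATA box (TATAAA or TTTATA) and the octamer of H2B promoters (ATTTGCAT or ATGCAAAT).
H2az2: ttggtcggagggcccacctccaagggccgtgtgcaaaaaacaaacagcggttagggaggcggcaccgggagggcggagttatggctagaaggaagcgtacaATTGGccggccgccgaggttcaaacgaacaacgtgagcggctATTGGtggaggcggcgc
H2aj: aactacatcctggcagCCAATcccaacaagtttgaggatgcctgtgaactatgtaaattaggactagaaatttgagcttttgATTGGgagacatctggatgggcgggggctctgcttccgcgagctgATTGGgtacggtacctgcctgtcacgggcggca
H4c8: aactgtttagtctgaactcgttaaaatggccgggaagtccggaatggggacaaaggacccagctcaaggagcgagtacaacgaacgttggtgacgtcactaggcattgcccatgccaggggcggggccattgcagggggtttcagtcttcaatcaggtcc
H2ac21: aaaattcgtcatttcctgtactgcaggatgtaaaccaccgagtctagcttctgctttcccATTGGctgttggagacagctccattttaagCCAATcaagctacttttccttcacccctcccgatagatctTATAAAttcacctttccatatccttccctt
H2bc12: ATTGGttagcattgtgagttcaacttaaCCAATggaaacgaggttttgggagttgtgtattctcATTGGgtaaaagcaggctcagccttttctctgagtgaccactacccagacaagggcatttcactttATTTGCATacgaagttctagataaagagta
In these windows H2az2 holds 2 CCAAT boxes and H2aj 3, H2ac21 holds 2 CCAAT boxes and a TATA box, and H2bc12 holds 3 CCAAT boxes and the octamer. H4c8 holds none of the 3 motifs. The motifs were also searched on both strands over 250 bases before the start. A promoter was found for 23 of 25 replication-dependent and 4 of 5 replacement genes, and a gene counted if any of its starts matched. The octamer stood in 4 of 6 H2B, 3 of 6 H2A, 0 of 4 H1 and 0 of 7 H4 genes, against 1.81% of all 27025 genes with a promoter. The CCAAT box stood in 4 of 4 H1, 6 of 6 H2A, 6 of 6 H2B, 1 of 7 H4 and 3 of 4 replacement genes, against 37.5% of all. The TATA box stood in 11 of 23 replication-dependent and 0 of 4 replacement genes, against 14.3% of all. Such matches describe the letters of these windows only, and no binding was measured.

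Among the replacement histones, the H2A.Z gene H2az2 rose from day 3 to day 6 under both hairpins, by 1.36-fold in control and 1.64-fold in knockdown cells. H2aj fell from day 3 to day 6 in knockdown cells, by 0.28 on the log2 scale. H2az1, H2ax and H1f10 passed no test in any of the 6 comparisons. Of the 5 replacement genes, 1 passed between the days in control cells (20%) and 2 in knockdown cells (40%). Over the 37 tested histone genes of all classes, 2 (5.41%) passed in control cells between the days, where 17.6% of all genes did. In knockdown cells 3 of 37 (8.11%) passed, where 17.9% of all genes did.

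H2az2 encodes H2A.Z.2, one of the 2 forms of the variant that marks promoters and is placed by the SRCAP and p400 complexes. Its log2 signal was 8.28, 8.24 and 8.18 in day 3 control arrays and 8.62, 8.83 and 8.57 in day 6 control arrays. It was 8.16, 8.05 and 7.99 in day 3 knockdown arrays and 8.88, 8.78 and 8.67 in day 6 knockdown arrays. All 6 day 6 arrays lay above all 6 day 3 arrays. The difference was 0.44 (SE 0.08, limma adjusted p = 0.00315) in control cells and 0.71 (SE 0.08, adjusted p = 0.000115) in knockdown cells. The 2 differences themselves differed by 0.27 (95% interval 0.02 to 0.52), which did not pass the test over all genes (adjusted p = 0.972). The knockdown call held in 9 of 9 fits with arrays left out, and was 0.70 (adjusted p = 0.00081) without replicate 2 of the day 3 knockdown. The control call held in 8 of 9, the exception being without replicate 2 of all groups (0.36, adjusted p = 0.0753).

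H2az1, the gene of the other H2A.Z form, H2A.Z.1, varied more among replicates, with an SE of 0.20 for each difference between groups. It read 7.62, 7.85 and 7.45 in day 3 control, 7.83, 7.37 and 7.09 in day 3 knockdown, 7.54, 7.77 and 7.17 in day 6 control and 7.65, 7.81 and 7.21 in day 6 knockdown arrays. All 4 groups overlapped. Its difference between the days was −0.15 (95% interval −0.59 to 0.30) in control and 0.13 (−0.32 to 0.57) in knockdown cells. The estimates for H2az2, 0.44 in control and 0.71 in knockdown cells, lay above these intervals. That comparison leaves out the spread of H2az2 itself, and a difference between H2az1 and H2az2 was not tested.

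H2aj encodes H2A.J, a variant that accumulates in senescent human fibroblasts. It read 7.32, 7.32 and 7.25 in day 3 control, 7.44, 7.44 and 7.43 in day 3 knockdown, 7.25, 7.19 and 7.12 in day 6 control and 7.09, 7.08 and 7.30 in day 6 knockdown arrays. The day 3 knockdown arrays lay above all 9 others. Between the days H2aj fell by 0.28 (SE 0.07, limma adjusted p = 0.0140) in knockdown cells, and in control cells the difference was −0.11 (adjusted p = 0.326). The difference between these 2 changes was −0.17 (95% interval −0.38 to 0.04, adjusted p = 0.990). The call was lost without replicate 1 of the day 6 knockdown (−0.25, adjusted p = 0.0510), without replicate 2 of it (−0.24, adjusted p = 0.0616), without replicate number 1 or 2 of all groups (−0.25 and −0.24), and with only the groups compared in the fit (adjusted p = 0.0501). It held without replicate 2 of the day 3 knockdown (−0.28, adjusted p = 0.0386).

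H2ax encodes the H2A variant that is phosphorylated beside DNA breaks. It read 9.63, 9.53 and 9.41 in day 3 control, 9.78, 9.56 and 9.56 in day 3 knockdown, 9.15, 9.40 and 9.34 in day 6 control and 9.48, 9.52 and 9.48 in day 6 knockdown arrays. The 2 day 6 groups did not overlap, knockdown being higher, and day 6 arrays lay below day 3 arrays under each hairpin. The differences did not pass, at 0.20 between hairpins at day 6 (95% interval 0.01 to 0.38, limma adjusted p = 0.999) and −0.23 between days in control cells (−0.41 to −0.04, adjusted p = 0.0898). H1f10, which encodes the linker histone H1.10, read 8.57, 8.40 and 8.32 in day 3 control, 8.50, 8.25 and 8.48 in day 3 knockdown, 8.38, 8.51 and 8.46 in day 6 control and 8.50, 8.58 and 8.49 in day 6 knockdown arrays. Its groups overlapped in every comparison, and its differences ran from −0.02 to 0.11.

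**Figure D1:**
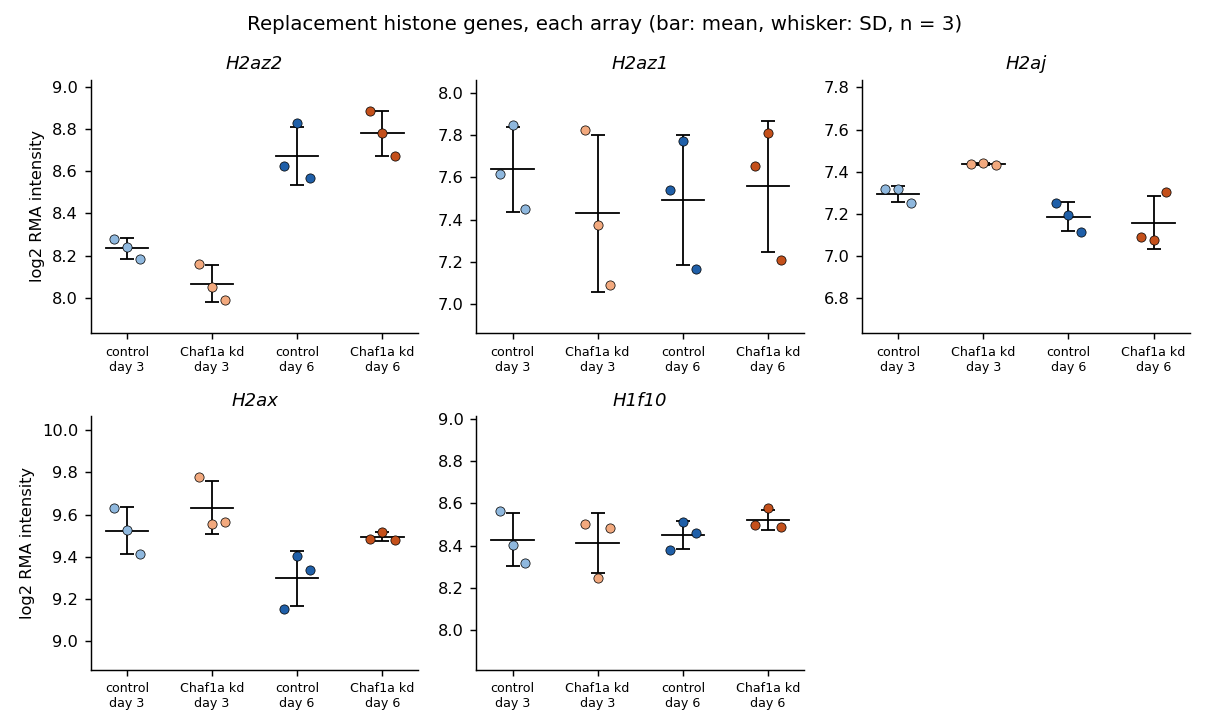
Log2 RMA intensity (vertical axis, a separate range per gene) of the 5 replacement histone genes on each of the 12 arrays, by hairpin and day; kd is knockdown. Points are arrays, bars are means and whiskers are SDs (n = 3). The day 6 points of H2az2 all lie above its day 3 points, and the 3 day 3 knockdown points of H2aj lie between 7.43 and 7.44, above all others of that gene.

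Of the 21 replication-dependent genes tested, 1 passed between day 3 and day 6 in control cells (4.76%), where 17.6% of all genes passed. It was H4c8, which rose 1.34-fold. In knockdown cells 1 of 21 passed (4.76%), where 17.9% of all genes passed. It was H2ac21, which rose 1.32-fold. The median difference of the 21 was −0.04 in control cells, with 9 above 0 and a range of −0.46 to 0.42, and 0.05 in knockdown cells, with 14 above 0 and a range of −0.29 to 0.40. The median of all genes was 0.01 in both. Leaving out arrays turned the sign of both medians. In control cells the median was 0.01 without replicate 1 of day 3, 0.05 without replicate number 1 of all groups, 0.01 with quantile normalisation repeated, 0.03 with array weights and 0.04 with the filter at the 50th percentile, and it was −0.10 without replicate 3 of day 3 and −0.08 without replicate 2 of day 6. In knockdown cells it was −0.01 without replicate 3 of day 3, 0.13 without replicate 1 of day 3, 0.14 without replicate number 1 of all groups, and 0.02 without replicate 2 of day 3. By family the medians in control cells were 0.02 for H1, 0.09 for H2A, −0.20 for H2B and −0.04 for H4, and in knockdown cells 0.14, 0.03, −0.06 and 0.08. The mean log2 deviation of the 21 genes from their own averages was −0.07 to 0.11 over day 3 control, −0.09 to 0.14 over day 3 knockdown, −0.10 to 0.08 over day 6 control and −0.02 to 0.07 over day 6 knockdown arrays, so that all 4 groups overlapped.

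H4c8 is an H4 gene of the large cluster on chromosome 13. It read 5.16, 5.05 and 5.05 in day 3 control and 5.65, 5.37 and 5.50 in day 6 control arrays, which did not overlap. In knockdown arrays it read 5.44, 5.004 and 5.03 at day 3 and 5.28, 5.48 and 5.28 at day 6, which overlapped through replicate 1 of day 3. The difference was 0.42 (SE 0.11, limma adjusted p = 0.0235) in control and 0.19 (SE 0.11, adjusted p = 0.297) in knockdown cells, and the 2 were not shown to differ (−0.23, 95% interval −0.58 to 0.11, adjusted p = 0.990). The control call was lost without replicate 1 (0.35) or replicate 3 (0.42) of day 6 control, without replicate 2 (0.40) or replicate 3 (0.40) of day 3 control, without replicate number 2 (0.47) or 3 (0.40) of all groups, and with every probe set fitted (adjusted p = 0.0657). Without replicate 1 of the day 3 knockdown the knockdown difference was 0.33 and passed (adjusted p = 0.0360), as it did without replicate number 1 of all groups (0.36, adjusted p = 0.0360).

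H2ac21 is an H2A gene of the smaller cluster on chromosome 3. It read 7.91, 8.11 and 7.76 in day 3 control, 7.71, 7.40 and 7.46 in day 3 knockdown, 7.83, 8.18 and 7.95 in day 6 control and 7.93, 8.01 and 7.84 in day 6 knockdown arrays. The 3 day 3 knockdown arrays were the lowest of the 12. Between the days it rose by 0.40 (SE 0.11, limma adjusted p = 0.0262) in knockdown cells, and the difference in control cells was 0.06. At day 3 the knockdown arrays differed from the controls by −0.40 (95% interval −0.65 to −0.16), which did not pass (adjusted p = 0.726). A second probe set of the gene had a mean log2 signal of 5.17, and with both averaged the rise was 0.19 and no longer passed (adjusted p = 0.163). The second, dimmer probe set thus did not share the rise. The call was also lost without replicate 1 (0.40) or 2 (0.36) of the day 6 knockdown, without replicate 2 (0.34) or 3 (0.37) of the day 3 knockdown, without replicate number 2 (0.30) or 3 (0.42) of all groups, with arrays centred on their median (adjusted p = 0.0519) and with every probe set fitted (adjusted p = 0.0702).

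H2bc22, an H2B gene, had the lowest difference in control cells, −0.46 (95% interval −0.81 to −0.11, limma adjusted p = 0.0722). It read 5.39, 4.92 and 5.33 in day 3 control and 4.65, 4.71 and 4.89 in day 6 control arrays, which did not overlap, and 5.36, 5.22 and 4.97 in day 3 knockdown and 4.61, 5.24 and 4.95 in day 6 knockdown arrays, which did. Its control difference passed with quantile normalisation repeated (adjusted p = 0.0402), with arrays centred on their median (0.0266), with array weights (0.0144), with only the groups compared (0.0457) and without replicate 2 of day 3 control (−0.60, 0.0340). The H4 gene H4c17 passed in control cells without replicate 3 of day 3 control (−0.45, adjusted p = 0.0405). In knockdown cells the H1 gene H1f3, at 0.22 (adjusted p = 0.0749), passed with array weights (0.0358), without replicate 1 of day 3 knockdown (0.29, 0.0219) and without replicate number 1 of all groups (0.33, 0.0383), and the pseudogene H2af-ps2 passed without replicate 3 of day 6 knockdown (−0.50, 0.0379).

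The brightest single-gene probe set of each of the 4 families was read on every array. H1f2, a linker histone gene, read 8.81, 8.997 and 8.98 in day 3 control, 9.13, 8.78 and 8.93 in day 3 knockdown, 9.14, 9.14 and 9.09 in day 6 control and 9.27, 8.98 and 9.13 in day 6 knockdown arrays. H2ac10, an H2A gene, read 11.84, 11.57 and 11.69, then 11.83, 11.60 and 11.76, then 11.73, 11.93 and 11.80, and then 11.60, 11.84 and 11.79 in the same order of groups. The groups of H2ac10 overlapped in every comparison. The H2B gene H2bc12 read 8.92, 8.76 and 8.65, then 8.77, 8.67 and 8.81, then 8.35, 8.79 and 8.43, and then 8.50, 8.67 and 8.95, and the H4 gene H4c12 read 11.94, 11.80 and 11.93, then 11.97, 11.90 and 11.76, then 11.89, 11.98 and 11.92, and then 11.93, 11.99 and 11.94. H4c12 had the narrowest range of the 21, 0.24, and H2aw the widest, 1.07. None of these 4 genes passed a test. The groups of H1f2 did not overlap between the days in control cells (0.20, 95% interval −0.01 to 0.40). In all, 6 of 37 histone genes did not overlap between the days in control cells, where 35.3% of all genes did not, and 5 of 37 in knockdown cells, where the share was 34.3%.

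**Figure D2:**
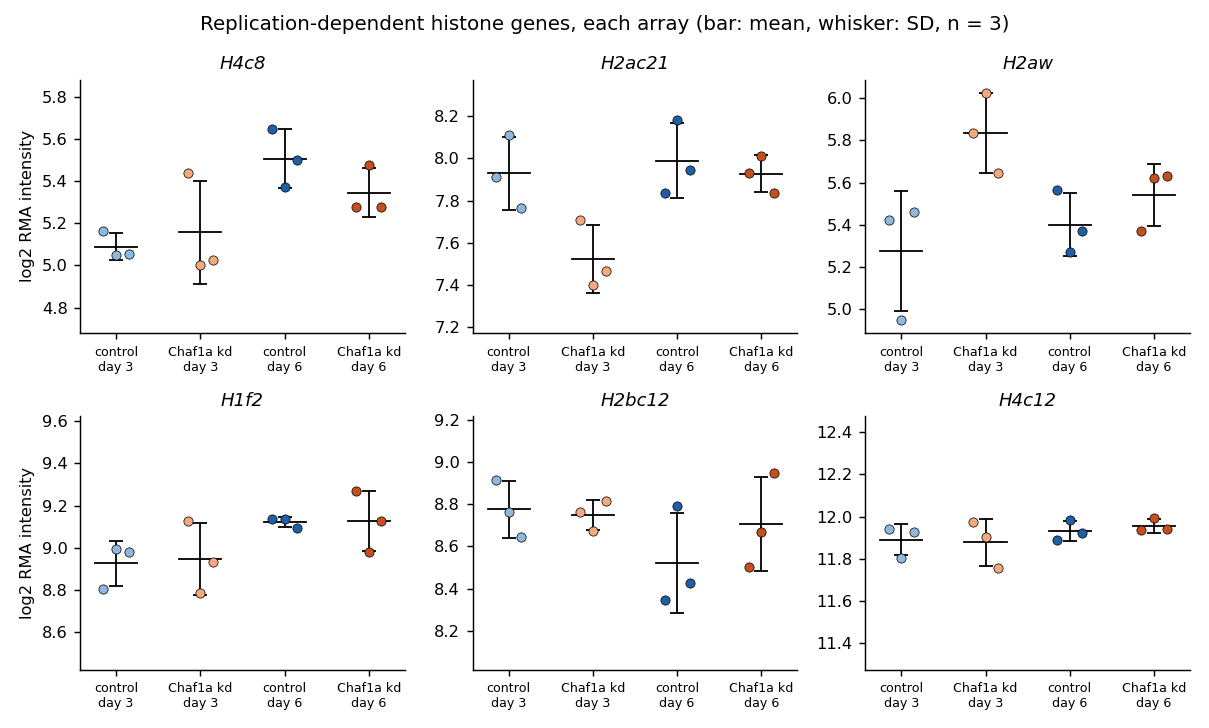
Log2 RMA intensity (vertical axis, a separate range per gene) of 6 replication-dependent histone genes on each of the 12 arrays, by hairpin and day; kd is knockdown. Points are arrays, bars are means and whiskers are SDs (n = 3). H2ac21 is lowest and H2aw highest in the 3 day 3 knockdown arrays, and H4c12 stays between 11.76 and 11.99 throughout.

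**Figure D3:**
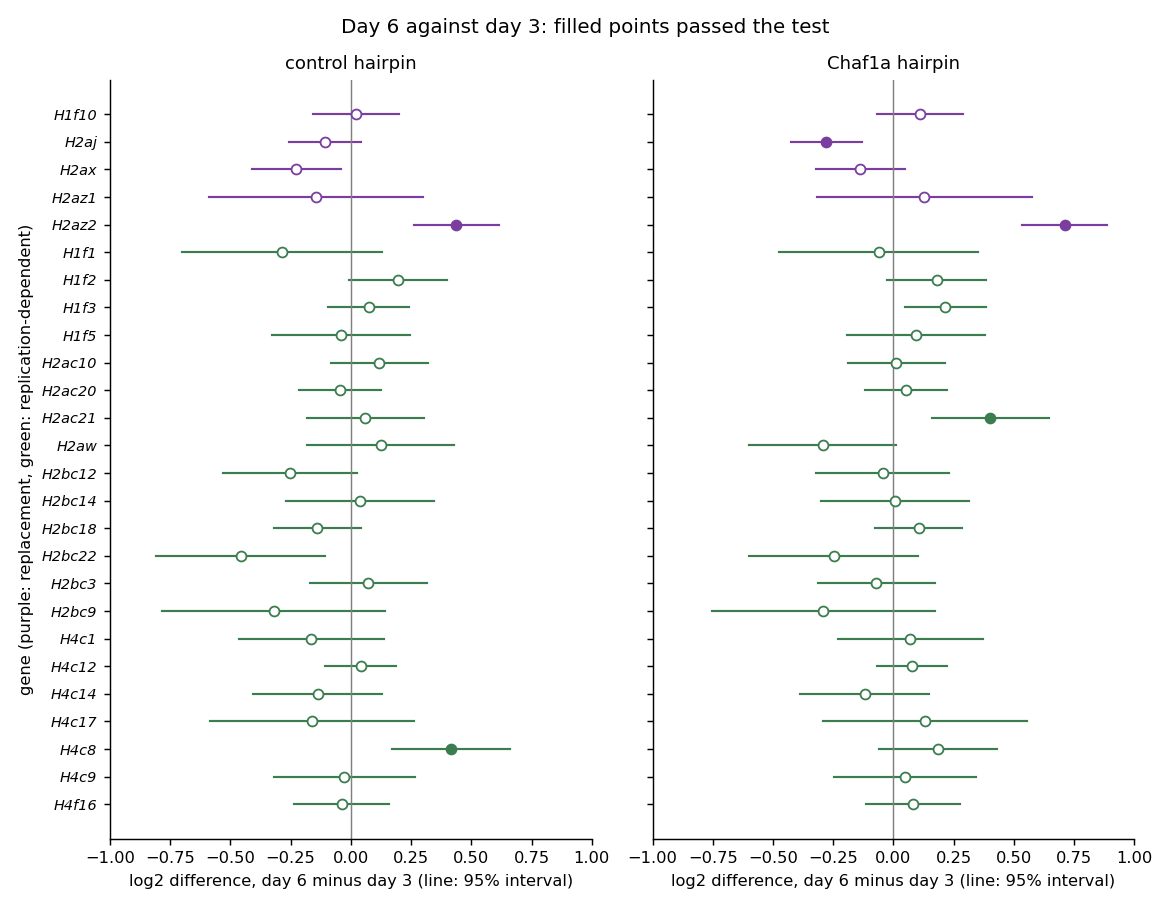
Log2 difference between day 6 and day 3 (horizontal axis, positive where day 6 is higher) for the 5 replacement genes in purple and 21 replication-dependent genes in green, with the control hairpin on the left and the Chaf1a hairpin on the right. Points are estimates, lines are 95% intervals and filled points passed the test. H2az2 is filled in both panels, H4c8 only on the left, and H2aj and H2ac21 only on the right.

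Between hairpins, no histone gene passed the test at day 3 or day 6. At day 3 limma called 0 of 37 histone genes and 0% of all genes, with 2 of 37 and 1074 of 17860 at an unadjusted p under 0.05. At day 6 it called 0 of 37 histone genes and 0.0392% of all genes, with 1 of 37 and 793 of 17860 at an unadjusted p under 0.05. The median difference of the 21 replication-dependent genes was −0.02 at day 3, with 8 above 0, and 0.02 at day 6, with 15 above 0, beside −0.01 for all genes at each day. Their differences lay within 0.2 of 0 for 17 of 21 genes at day 3 and 19 of 21 at day 6, and the median half-width of a gene's 95% interval was 0.27. The sign of the day 3 median turned with the arrays used, at 0.04 with 12 genes above 0 without replicate 1 of day 3 control, 0.03 with 12 above 0 without replicate 3 of the day 3 knockdown and 0.01 without replicate number 3 of all groups. It was −0.09 with 3 above 0 without replicate 1 of the day 3 knockdown, −0.05 without replicate 3 of day 3 control, and −0.02 without replicate 2 of the day 3 knockdown. The day 6 median ran from 0.01 to 0.06 with arrays left out, the highest without replicate 2 of day 6 control and the lowest without replicate 3 of it. The 5 replacement genes had a median of −0.02 at day 3 and 0.07 at day 6. Their day 3 median was 0.05 without replicate 1 of day 3 control, 0.06 without replicate 2 of the day 3 knockdown and −0.07 without replicate 3 of day 3 control, and their day 6 median was 0.18 without replicate 2 of day 6 control and 0.16 without replicate 3 of the day 6 knockdown.

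The largest difference at day 3 was that of H2aw, an H2A gene of the small cluster on chromosome 11, which did not pass. It read 5.42, 4.95 and 5.46 in day 3 control and 5.84, 6.02 and 5.65 in day 3 knockdown arrays, and 5.56, 5.27 and 5.37 in day 6 control and 5.37, 5.62 and 5.63 in day 6 knockdown arrays. The day 3 knockdown arrays were the highest of the 12. The difference was 0.56 (95% interval 0.25 to 0.86, limma adjusted p = 0.700), and 0.46 without replicate 2 of the day 3 knockdown. At day 6 it was 0.14, and averaged over both days it was 0.35 (adjusted p = 0.596). Groups did not overlap for 4 of 37 histone genes at day 3, H2aw and H2aj being higher and H2ac21 and H2az2 lower in knockdown, where 10.8% of all genes did not overlap, 5.21% with knockdown higher and 5.59% with knockdown lower. At day 6 this held for 2 of 37, H2ax and H2bc18, both higher in knockdown, where the share of all genes was 10.6%, 5% with knockdown higher and 5.57% with it lower. H2bc18, an H2B gene of chromosome 3, read 7.72, 7.91 and 7.89 in day 6 control and 7.98, 7.96 and 7.95 in day 6 knockdown arrays.

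The other replication-dependent genes at the ends of the order overlapped between hairpins on both days. H2bc9, an H2B gene, read 5.71, 5.77 and 5.09 in day 3 control, 5.73, 5.45 and 6.01 in day 3 knockdown, 4.99, 5.65 and 4.96 in day 6 control and 5.26, 5.58 and 5.48 in day 6 knockdown arrays, and its differences were 0.21 at day 3 and 0.24 at day 6. H2bc14, another H2B gene, differed by 0.15 at day 3, from 5.54, 4.94 and 5.42 to 5.61, 5.46 and 5.26. At day 6 the H4 gene H4c1 differed by 0.21, from 5.02, 5.25 and 4.72 to 5.24, 5.34 and 5.03. The groups overlapped for both genes. H1f1, a linker histone gene, differed by 0.19 at day 6, from 4.64, 5.29 and 4.97 to 5.13, 5.29 and 5.04. At the lower end at day 3 stood H4c17 (−0.27), which went from 5.37, 5.09 and 4.37 to 4.73, 4.55 and 4.73, and H1f3 (−0.14), which went from 5.90, 5.96 and 6.04 to 5.99, 5.82 and 5.69. At day 6 it was H4c8 (−0.16), H2bc3 (−0.13), which went from 8.65, 8.75 and 8.56 to 8.38, 8.71 and 8.50, and H2ac10 (−0.08). All of these groups overlapped. The difference between the hairpin effects of the 2 days was not called for any of the 37 genes (limma, 2 at an unadjusted p under 0.05), nor was the effect averaged over both days (3 at an unadjusted p under 0.05), where 0% of all genes were called in each.

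**Figure D4:**
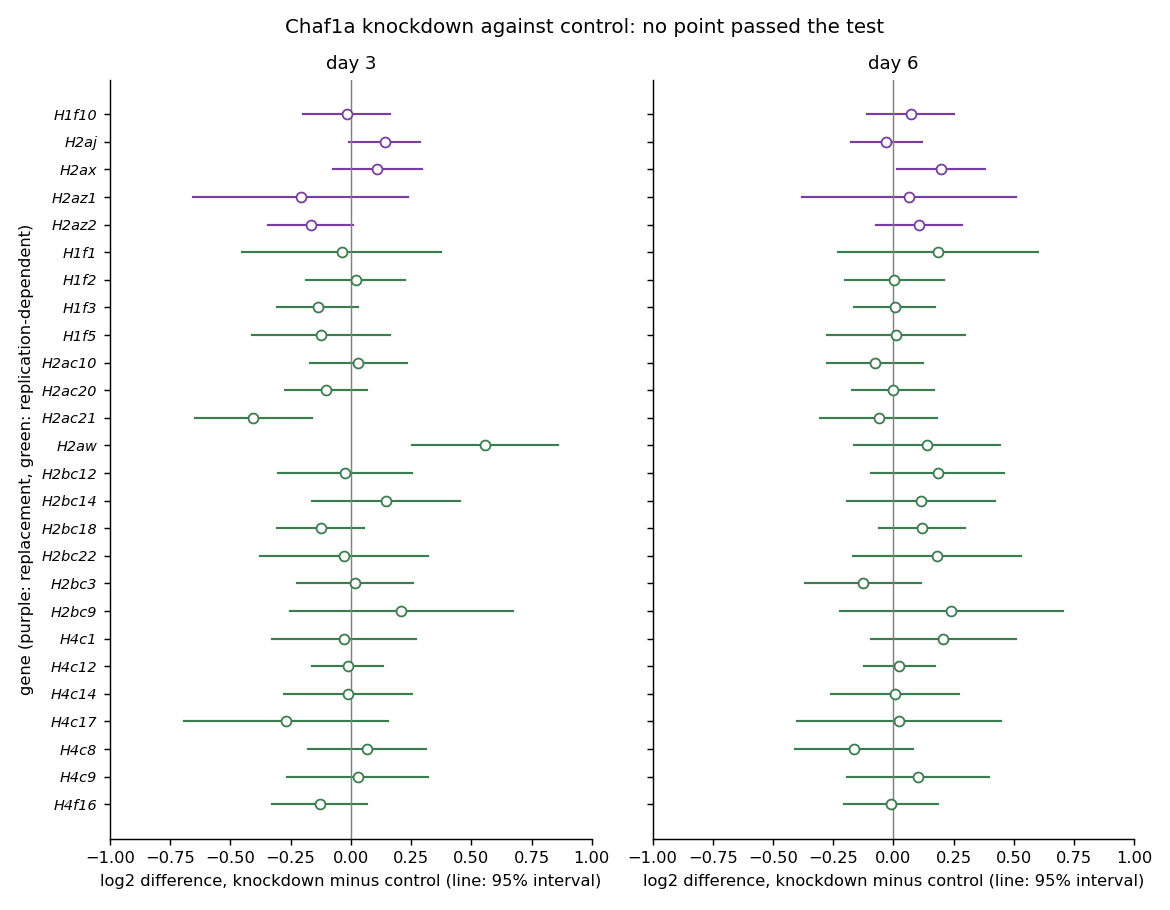
Log2 difference between Chaf1a knockdown and control (horizontal axis, positive where knockdown is higher) for the 5 replacement genes in purple and 21 replication-dependent genes in green, at day 3 on the left and day 6 on the right. Points are estimates and lines are 95% intervals. No point is filled, since none passed the test, and at day 3 H2aw (0.56) and H2ac21 (−0.40) lie farthest from 0.

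Germline histones, which replace the somatic forms in sperm precursors or in oocytes, gave low signals. The 10 tested genes ranged from 4.50 to 6.62 over all arrays and the 6 not tested from 2.67 to 3.97, and of 6 germline marker genes on the array 3 passed the filter, with a mean over all 6 of 4.44 to 4.55. No germline histone passed in limma in any comparison, with 1 of 10 at an unadjusted p under 0.05 between days in control cells and 0 of 10 in knockdown cells. H2al2a, a testis H2A variant gene, had the highest difference between days in control cells, 0.36 (adjusted p = 0.150). Its arrays read 6.25, 5.72 and 6.39 at day 3 and 6.62, 6.34 and 6.47 at day 6, which overlapped. Between hairpins, the germline genes at the ends of the order all overlapped. At day 3 the highest differences were those of H2al2a (0.15), which read 6.12, 6.46 and 6.22 in knockdown, H1f7 (0.12), from 4.81, 4.78 and 4.90 in control to 4.74, 5.01 and 5.10 in knockdown, and H2al1o (0.04), from 5.27, 5.22 and 5.34 to 5.34, 5.40 and 5.21. The lowest were those of H2ac1 (−0.16), from 5.62, 5.48 and 5.48 to 5.46, 5.51 and 5.14, H2ab1 (−0.13), from 5.26, 5.67 and 5.60 to 5.28, 5.62 and 5.23, and H2ap (−0.09), from 5.94, 5.92 and 5.96 to 5.70, 6.004 and 5.84. H1f7 is a linker histone gene of spermatids and the others are testis H2A genes. At day 6 the highest were those of H2ac1 (0.27), from 5.05, 5.34 and 5.56 to 5.70, 5.66 and 5.39, H2ab1 (0.10), from 5.25, 5.14 and 5.58 to 5.19, 5.62 and 5.46, and H2ab2 (0.03), from 6.42, 6.47 and 6.35 to 6.57, 6.47 and 6.30. The lowest were those of H2al1o (−0.26), from 5.48, 5.07 and 5.39 to 5.15, 5.24 and 4.76, H1f8 (−0.19), the oocyte linker histone gene, from 5.17, 5.30 and 5.26 to 4.82, 5.41 and 4.91, and H2al1m (−0.14), from 6.21, 6.43 and 6.25 to 6.05, 6.23 and 6.20. H2ac1 and H2ab1 thus had opposite signs on the 2 days, and neither difference between the days passed (limma adjusted p = 0.972 and 0.991).

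H3 and H3.3 could be followed only through probe sets that list several genes, whose signal cannot be assigned to any of them. With all 41345 probe sets fitted together, 54 distinct probe sets listing several genes, at least 1 of them a histone, were read. Between the days 2 of 54 passed in control cells (6% of all probe sets) and 4 of 54 in knockdown cells (6.61%). Between hairpins limma called 0 of 54 at day 3, with 5 at an unadjusted p under 0.05 and 0% of all probe sets called, and 0 of 54 at day 6, with 3 and 0.00726%. None of the 9 distinct probe sets listing several H2A genes passed between days or between hairpins (limma, 0 at an unadjusted p under 0.05), with differences between −0.20 and 0.10.

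One probe set listing 8 H3 genes of the replication-dependent class fell with time under both hairpins. It read 6.34, 6.99 and 6.86 in day 3 control, 6.92, 7.09 and 6.80 in day 3 knockdown, 5.54, 5.98 and 6.07 in day 6 control and 5.83, 6.03 and 5.66 in day 6 knockdown arrays. All day 6 arrays lay below all day 3 arrays. It fell by 0.87 (SE 0.18, limma adjusted p = 0.0179), or 1.83-fold, in control cells and by 1.10 (adjusted p = 0.00495), or 2.14-fold, in knockdown cells, where it also passed without replicate 2 of day 3, and values with arrays left out ran from −1.19 to −1.01. In knockdown cells the call was lost only without replicate number 2 or 3 of all groups (−1.11 and −1.07). In control cells it was lost without replicate 1 of day 6 (−0.71), replicate 2 or 3 of day 3 (−0.74 and −0.80) or number 2 or 3 of all groups (−0.80 and −0.91), and with only the groups compared (adjusted p = 0.0777). The 7 other probe sets that list the same 8 genes did not pass. Their differences ran from −0.34 to 0.23 in control cells, with a median of −0.05, and from −0.43 to 0.09 in knockdown cells, with a median of −0.15 (limma, 0 of 7 and 1 of 7 at an unadjusted p under 0.05).

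A probe set listing H3f3a, one of the genes of H3.3, together with Gm12657 rose with time under both hairpins. It read 11.44, 11.37 and 11.40 in day 3 control, 11.42, 11.31 and 11.32 in day 3 knockdown, 11.63, 11.73 and 11.66 in day 6 control and 11.58, 11.60 and 11.69 in day 6 knockdown arrays, and day 6 lay above day 3 throughout. The rise was 1.21-fold in each, by 0.27 (limma adjusted p = 0.0236) in control and 0.28 (adjusted p = 0.0197) in knockdown cells. With arrays left out the call held in 1 of 9 settings in control cells, with values of 0.23 to 0.31, and in 2 of 9 in knockdown cells, with values of 0.23 to 0.33, and it was lost with arrays centred on their median (0.23, adjusted p = 0.0940, and 0.26, adjusted p = 0.0605). The 7 probe sets that list an H3.3 gene had a median difference of 0.09 in control and 0.15 in knockdown cells.

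In knockdown cells a probe set listing 3 H2B genes fell by 0.39 (limma adjusted p = 0.0222), from 7.91, 7.64 and 7.82 at day 3 to 7.43, 7.35 and 7.40 at day 6, while in control cells it read 7.20, 7.28 and 7.48 and then 7.51, 7.45 and 7.57, a difference of 0.19 (adjusted p = 0.289). A probe set listing 13 H4 genes rose by 0.45 (adjusted p = 0.0494), from 3.96, 3.91 and 3.82 to 4.28, 4.45 and 4.33, close to the filter level of 4.30 to 4.38. The first call held in 2 of 9 settings with arrays left out, with values of −0.47 to −0.33, and was lost with only the groups compared (adjusted p = 0.0647). The second held in 0 of 9, with values of 0.40 to 0.52, and was lost with quantile normalisation repeated (adjusted p = 0.0594) and with arrays centred on their median (adjusted p = 0.0863).

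Genes that act with histones were also read. Of 42 genes of DNA replication and S phase, 21 fell between day 3 and day 6 in control cells and none rose, with a median of −0.31, where 10.6% of all genes fell. In knockdown cells 4 of 42 fell, with a median of −0.16, where 10.5% of all genes fell, so that the knockdown count was near the share of all genes. Rrm2, a subunit of ribonucleotide reductase, fell by 0.88 (limma adjusted p = 6.62e-05) in control and 0.57 (adjusted p = 0.00112) in knockdown cells. Tk1, a thymidine kinase, Pola2, a subunit of the primase polymerase, and Fen1, a flap endonuclease, also fell under both hairpins, by 0.43, 0.34 and 0.37 in control and by 0.38, 0.41 and 0.35 in knockdown cells. In control cells the helicase genes Mcm4 (−0.54), Mcm5 (−0.52), Mcm6 (−0.38), Mcm2 (−0.32) and Mcm10 (−0.42) fell, as did Clspn, Prim1, Lig1, Pole, Rpa1, Gins1, Uhrf1, E2f8, Tipin, Orc6, Rfc2 and Rrm1. The control count depended on the arrays used, at 14 or 10 without replicate 1 or 2 of day 3, 7 or 13 without replicate 1 or 3 of day 6, and 5, 9 and 4 without replicate number 1, 2 and 3 of all groups. The knockdown count was 3 without replicate 1 of day 6, 1 without replicate number 3 of all groups, 4 without replicate 3 of day 3 and 2 without any of the other arrays or numbers. Of 24 mitosis genes, 16 fell in control cells and 10 in knockdown cells, with medians of −0.37 and −0.29. The mitotic kinase genes Aurka, Plk1, Cdk1 and Bub1 fell under both hairpins, as did Birc5, Prc1, Anln, Ndc80, Cenpe and Tpx2, and in control cells Nuf2, Kif20a, Aurkb, Kif23, Ttk and Cdc20 fell too. The control count was 7 without replicate number 3 of all groups and 9 without replicate 1 of day 6, and the knockdown count was 4 without replicate 1 of day 3, 6 without replicate 1 of day 6, and 4, 5 and 3 without replicate number 1, 2 and 3 of all groups. The medians of these lists and of the 21 replication-dependent histone genes (−0.04 and 0.05) moved with the arrays used. In knockdown cells the DNA replication median was −0.08 without replicate 1 of day 3 and −0.04 without replicate number 1 of all groups, where the mitosis median was −0.13, and in control cells the lists' medians ran from −0.37 to −0.23 and from −0.45 to −0.26 over all alternatives. Between hairpins, limma called 0 of 42 replication genes at day 3 (0 at an unadjusted p under 0.05) and at day 6 (3 at an unadjusted p under 0.05), and their medians were −0.05 and 0.11. The changes between the days were not shown to differ between hairpins. Limma called that difference for 0 of 42 replication genes (3 at an unadjusted p under 0.05) and 0 of 24 mitosis genes (1). Its medians were 0.15 and 0.18, beside 0.002 for all genes, of which 0% were called, and no set test was run.

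Of 21 tested genes that make or process histone mRNA, 1 rose and 4 fell in control cells, where 6.99% of all genes rose and 10.6% fell, and 1 rose and none fell in knockdown cells, where 7.46% rose and 10.5% fell. The gene that rose under both hairpins was Yy1, a transcription factor of H4 promoters (0.24, limma adjusted p = 0.00814 in control, and 0.19, adjusted p = 0.0254 in knockdown). Its control call was lost with arrays centred on their median and without replicate number 2 or 3 of all groups. Its knockdown call was lost without replicate 2 or 3 of day 3, without replicate 2 or 3 of day 6, without any of the 3 replicate numbers, with arrays centred on their median, with only the groups compared and with every probe set fitted. The 4 that fell in control cells were Cpsf2 (−0.38) and Cstf2 (−0.23) of the cleavage machinery, the cap-binding gene Ncbp1 (−0.29), and Eri1 (−0.33), an exonuclease that degrades histone mRNA. Slbp, the stem-loop binding protein, read 8.63, 8.60 and 8.51 in day 3 control and 8.39, 8.60 and 8.45 in day 6 control arrays, which overlapped (−0.10, adjusted p = 0.439), and Npat differed by −0.02 (adjusted p = 0.877). Between hairpins limma called 0 of the 21 on either day (0 at an unadjusted p under 0.05). The difference between the hairpin effects of the 2 days was also called for 0 of the 21 (0 at an unadjusted p under 0.05). With arrays left out, 1 to 4 of the list fell in control cells, with 2 without replicate 2 of day 3, replicate 1 of day 6 or replicate number 1, and 1 without number 2 or 3.

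Of 33 tested histone chaperones and exchange factors, 1 rose and 7 fell in control cells, and 4 rose and 2 fell in knockdown cells. Of all genes 17.6% and 17.9% passed in these comparisons, and the knockdown count of 6 of 33 was at that share. Asf1b, which hands H3 and H4 to CAF-1, fell by 0.57 (limma adjusted p = 0.00135) in control and 0.59 (adjusted p = 0.000962) in knockdown cells, and Ipo4, an importer of H3 and H4, by 0.18 (adjusted p = 0.0387) and 0.19 (adjusted p = 0.0314). Atrx, which with Daxx deposits H3.3, rose by 0.22 (adjusted p = 0.0205) and 0.44 (adjusted p = 0.000333). In control cells Chaf1b (−0.44), Chaf1a (−0.30), Mcm2 (−0.32), Hat1 (−0.29) and Ep400 (−0.26) also fell, and in knockdown cells Srcap (0.38), Rbbp4 (0.27) and Ubn2 (0.24) rose. Srcap and Ep400 encode the ATPases of the complexes that place H2A.Z. With arrays left out, 1 to 5 of the list fell in control cells and 1 to 2 in knockdown cells. The control rise, that of Atrx, was lost without replicate 1 or 3 of day 6, without any of the 3 replicate numbers, with arrays centred on their median and with every probe set fitted. In knockdown cells the number that rose was 2 without replicate 2 of day 3, replicate 1 or 2 of day 6 or replicate number 2, 1 without number 3, and 2 with arrays centred on their median, only the groups compared or every probe set fitted. Between hairpins Chaf1b, the middle subunit of CAF-1, differed by −0.43 at day 3 (adjusted p = 0.697), and limma called 0 of 33 at day 3 (5 at an unadjusted p under 0.05) and at day 6 (2). The difference between the hairpin effects of the 2 days was called for 0 of 33 (4 at an unadjusted p under 0.05). Cenpa, the centromeric H3 variant, differed by −0.27 between the days in control cells (adjusted p = 0.106), and none of the 3 macroH2A genes passed in any comparison (limma, 0 at an unadjusted p under 0.05).

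**Figure D5:**
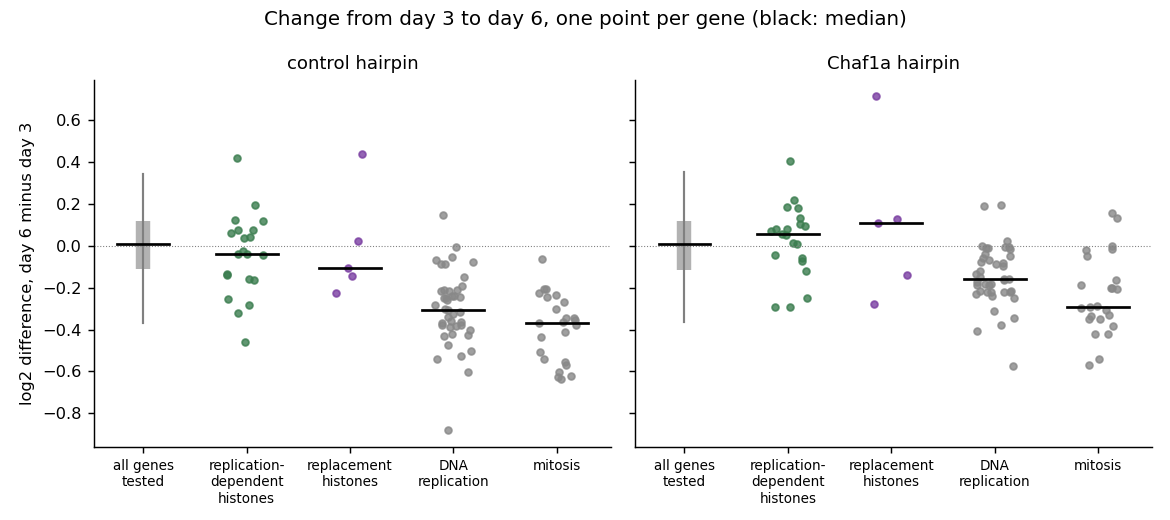
Log2 difference between day 6 and day 3 (vertical axis, positive where day 6 is higher) for replication-dependent histone, replacement histone, DNA replication and mitosis genes, with the control hairpin on the left and the Chaf1a hairpin on the right. Each point is a gene and black lines are medians, and for all 17860 genes tested the box spans the 25th to 75th percentile and the thin line the 5th to 95th percentile. The replication-dependent genes centre near 0 (medians −0.04 and 0.05), and the DNA replication genes lie lower (−0.31 and −0.16).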

How the data were processed

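Gene expression came from 12 Affymetrix arrays. The deposited values are intensities that the authors made with RMA in Expression Console, version 1.3.0.187, as the submitters' processing notes list. They ran from 4.71 to 13421 and so were on a linear scale, and log2 was taken. Neither a genome build nor a release of the array's annotation was stated for them. Of 41345 probe sets, the platform annotation gave 1 gene to 23521, several to 1814 and none to 16010, and 23328 of the first had their gene ID in the RefSeq table. The number of arrays limits the precision. Arrays of one group correlated at 0.991 to 0.995.

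The test was limma 3.58.1 (R 4.3.3). A linear model with 1 mean for each of the 4 groups was fitted to all 12 arrays, leaving 8 residual and 4.37 prior degrees of freedom. P-values were two-sided and adjusted by Benjamini-Hochberg over the 17860 genes, and probe sets naming several genes over all 41345, at a threshold of 0.05. The procedure was tested on simulated data with independent arrays and added differences larger than any single-gene histone difference here. That test does not cover smaller differences or paired samples. Alternatives changed the filter, normalisation, probe set rule, array weights, eBayes trend, replicate block, the groups fitted or the arrays kept.

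Replicate numbers come from the labels. Deviations from group means correlated at 0.137 to 0.373 in all 12 pairs of equal number in compared groups, and at −0.279 to −0.012 in the 24 pairs of different number in those groups. In groups not compared, pairs of equal number correlated at 0.0006 to 0.1971 and pairs of different number at −0.147 to 0.0247. Deviations cancel within a group, so negative values for different numbers follow in part from positive ones for equal numbers. The numbers may therefore pair the samples. The main fit, with its SEs, intervals and p-values, does not use this pairing, and the replicate block is an alternative only.

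The members and gene lists were chosen with earlier results of these data known. Replication-dependent genes were told from the other classes through RefSeq synonyms. Values on every array were given for members past the threshold, for the 3 members of a class with the largest rise and the 3 with the largest fall in each hairpin comparison (in the groups compared), for the brightest replication-dependent member of each family, and for the replacement genes. Of other genes, the listed ones past the threshold were named, with Chaf1a, Chaf1b, Cenpa, Slbp and Npat. H2bc22, H2bc18 and H4c17 between days were added after their values were seen. Tables used Python 3.11.15 with pandas 2.3.3, and plots matplotlib 3.10.9.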

Additional observations from a re-analysis of the deposited data

How the results depend on the processing

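No difference that passed for a histone gene, or for a probe set listing several genes, changed its direction under any alternative. Of all genes, 7 passed between hairpins at day 6, against 2 with every probe set fitted and 2 with only the groups compared. Between days, 3140 passed in control cells and 3200 in knockdown cells, against 1951 and 2097 with every probe set fitted. Averaged over both days, 0 passed between hairpins, against 3 with array weights, 3 with an eBayes trend and 2 with the replicate block. The replicate block changed no call of a histone gene. For the replication-dependent genes, 1 passed between days in control cells, against 2 with quantile normalisation repeated, arrays centred on their median, array weights or only the groups compared, and 0 with every probe set fitted. In knockdown cells 1 passed, against 2 with array weights and 0 with arrays centred on their median, the mean of a gene's probe sets or every probe set fitted. For the replacement genes 2 passed in knockdown cells, against 1 with only the groups compared. Fitting every probe set adjusts over more tests and fitting only the groups compared uses fewer arrays. The cause of a changed count was not tested for any setting.

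With arrays left out, all-gene counts ran from 0 to 8 between hairpins at day 6, 0 to 2 for the difference between days, 1072 to 2808 between days in control cells, 1068 to 2610 in knockdown cells, and 0 to 2 averaged over both days. Replication-dependent counts ran from 0 to 1 in control cells and 0 to 3 in knockdown cells between days, and replacement counts from 0 to 1 and 1 to 2. The histone counts between hairpins stayed at 0 in limma under every alternative run. The number of arrays, the width of the intervals and the shared probe sequence of cluster genes limit these results. The unsettled input RNA (total or polyA) limits those for genes whose mRNA lacks a tail. Low signal limits the results of germline genes. It also limits those of the dim replication-dependent genes H1f1, H1f3, H2aw, H2bc9, H2bc14, H2bc22, H4c1, H4c8, H4c14 and H4c17. Their means lay within the 4.50 to 6.62 of the tested germline genes, and the medians of the class include them.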
